A study of Caenorhabditis elegans with 2 samples.

Results

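The genes described here encode the proteins that make, carry and receive Wnt signals in Caenorhabditis elegans: mom-1 and mig-14 for secretion, egl-20, cwn-1, cwn-2, lin-44 and mom-2 for the ligands, and lin-17, mom-5 and mig-1 for receptors. They are 10 of the 19973 protein-coding genes on the 6 nuclear chromosomes of the WBcel235 assembly (ce11). The list was chosen by known gene function, with peak values of these data already known. Among them was the high signal of a peak in an intron of mom-1. The signals are therefore given as a description and no test was made on them. Sites bound by UNC-39, a SIX-type homeodomain protein that acts in mesoderm and neurons, had been mapped by ChIP-seq in whole L2 larvae of mixed sex. The only group was strain OP186, which carries the insertion wgIs186 with eGFP-tagged unc-39 and the unc-119 allele ed3 on chromosome III, with 2 biological replicates. Every cell type of the larva is mixed in such a sample, and the promoter that drives the tagged gene is not given in the sources used here. Summits were taken when they lay inside a gene or within 5 kb of either end, from the authors' list of peaks and background regions called on both replicates together (30000 regions) and from each replicate's own list (30000 regions for replicate 1 and 24978 for replicate 2). Signal is the value the authors gave each region, and it is comparable only within a list.

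Wnt proteins are secreted glycoproteins that carry a lipid, added in the endoplasmic reticulum by the Porcupine acyltransferase, which mom-1 encodes. The lipid-bearing ligand is taken to the cell surface by the carrier Wntless, encoded by mig-14, and then binds Frizzled receptors on other cells. In the worm this pathway sets the polarity of dividing cells, guides migrating neuroblasts and axons along the body, and in the embryo directs the fate of endoderm precursors.

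The sequence at the mom-1 intron peak is shown first because it holds the highest signal of these genes, and because matches to a named word lie on both sides of its summit. Each run below is 200 bases of the plus strand of ce11, read from the RefSeq copy of WBcel235, with the summit at base 101. Capitals mark matches to the MEX word, a 12-base word known from the places where the dosage compensation complex is first loaded onto the X chromosome, with at most 2 mismatches. The mom-1 run is chrX:6296460-6296659 and begins in coding sequence, with the intron starting at 6296494.
mom-1 intron peak: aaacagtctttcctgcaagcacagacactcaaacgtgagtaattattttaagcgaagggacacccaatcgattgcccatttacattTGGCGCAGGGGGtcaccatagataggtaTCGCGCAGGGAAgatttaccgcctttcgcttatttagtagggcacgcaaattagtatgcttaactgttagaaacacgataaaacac
The highest summits of the other secretion gene, mig-14 (chrII:13752807-13753006), and of the ligand gene cwn-1 (chrII:137679-137878) are given for contrast, since neither has a match to any of the 7 patterns searched. The mig-14 summit has the same GC content as the mom-1 peak, 43.5%, and cwn-1 has 38.5%.
mig-14 highest summit: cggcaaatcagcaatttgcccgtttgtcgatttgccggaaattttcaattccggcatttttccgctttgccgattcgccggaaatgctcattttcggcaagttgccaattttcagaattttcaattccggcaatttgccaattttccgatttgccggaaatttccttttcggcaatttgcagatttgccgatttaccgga
cwn-1 highest summit: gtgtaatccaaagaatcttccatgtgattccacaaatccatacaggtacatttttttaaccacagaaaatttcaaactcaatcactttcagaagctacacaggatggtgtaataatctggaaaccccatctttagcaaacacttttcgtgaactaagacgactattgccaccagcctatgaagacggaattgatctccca

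One summit, in an intron of mom-1, stood far above all others of these genes. All 10 genes had a pooled summit in reach, as did 96.7% of all protein-coding genes. The 10 genes held 54 pooled summits. Their signals lay between 13.1 and 105, and their median was 17.1, beside 17.0 over all 30000 pooled regions. The authors' thresholded list held 140 peaks, which were the 140 highest of the pooled list by signal, down to 45.9. A place in it therefore adds nothing to the pooled rank. Only the mom-1 intron summit of these genes was in it. Thus 1 of 10 genes had a thresholded summit in reach, and 1.72% of all protein-coding genes did. Because this peak was known when mom-1 was listed, nothing is read from that count. Among the 1000 highest pooled regions were summits of 3 of the genes, mom-1, mom-5 and cwn-1, beside 11.2% of all protein-coding genes. This count includes the known mom-1 peak, so nothing is read from it either. Over the 151 kb searched there were 0.357 summits per kb, and the genome as a whole had 0.299.

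**Figure D1:**
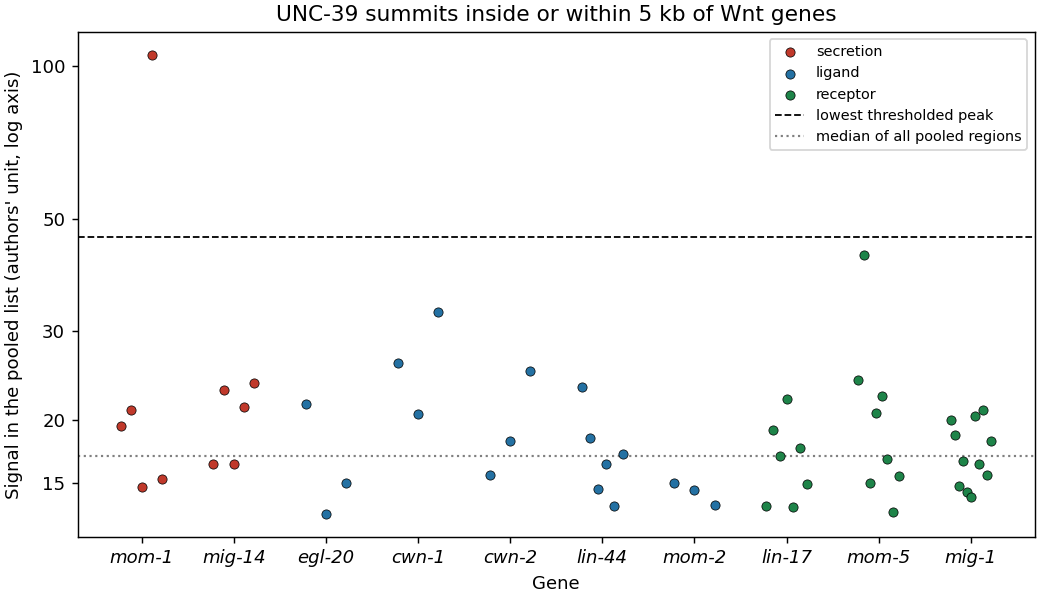
Signal of each pooled summit (points, log axis) inside or within 5 kb of the 10 Wnt genes, in order of position within each gene and coloured by role. The mom-1 intron peak, at 105, is the only point above the lowest thresholded signal of 45.9 (dashed line), and most other points lie near the median of all pooled regions (dotted line, 17.0).

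Position of the 54 summits varied. There were 18 inside the genes, of which 9 were in introns, 8 in coding exons and 1 in an untranslated exon. A further 20 lay upstream and 16 downstream. Of these 36 outer summits, 18 were inside another protein-coding gene. For 28 of all 54 the Wnt gene was the nearest protein-coding gene. Within 1000 bp upstream of a 5′ end lay 5 summits, at mom-1 (269 and 786 bp), mig-14 (70 bp), cwn-1 (618 bp) and mig-1 (112 bp). Their signals ran from 14.8 at mom-1 to 21.0, also at mom-1. None of the 5 was the highest summit of its gene. The matching shares of positions over all pooled summits are not given, so nothing is read from these counts. At the edge of the search, the nearest summit left out was at mom-1, 5002 bp from the gene with a signal of 13.3, and the farthest one taken was at mig-14, 4740 bp away with a signal of 16.4. Among the nearest summits left out at each gene, the highest was 6335 bp from egl-20, with a signal of 32.9 at rank 649.

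mom-1 (WBGene00003394, chrX:6293112-6298305, plus strand) had the fifth highest region of the pooled list. The peak covers chrX:6296378-6296741, with its summit at 6296560 and a signal of 105 at rank 5 of 30000. In replicate 1 the summit was at the same base, with a signal of 48.6 at rank 5 of 30000, and in replicate 2 it was 5 bp away, with a signal of 58.4 at rank 6 of 24978. Both replicates thus placed it among their highest 6 regions and within 5 bp of each other. The summit lies 3448 bp downstream of the 5′ end in intron 7, the last and longest of 7 introns at 1299 bp (the next longest has 1002 bp), and it is 67 bp past the preceding exon and 1233 bp before the final one. No other annotated gene overlaps the peak. Replicate 1 also listed a second summit 209 bp further on in the same intron, with a signal of 19.9 at rank 659, which the other lists did not have.

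The other 4 pooled summits near mom-1 were low. The highest of them, with a signal of 21.0 at rank 6948, lay inside a tRNA gene (WBGene00023133) 786 bp upstream of mom-1. The remaining ones had signals of 19.5 in an intron of lev-9, 15.3 in a coding exon of cest-16 and 14.8 in the space 269 bp before mom-1 itself. All 4 had a partner within 100 bp in replicate 2, at ranks from 7231 to 21853, and none in replicate 1. The intron peak was thus the only one of the 5 found in both replicates.

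**Figure D2:**
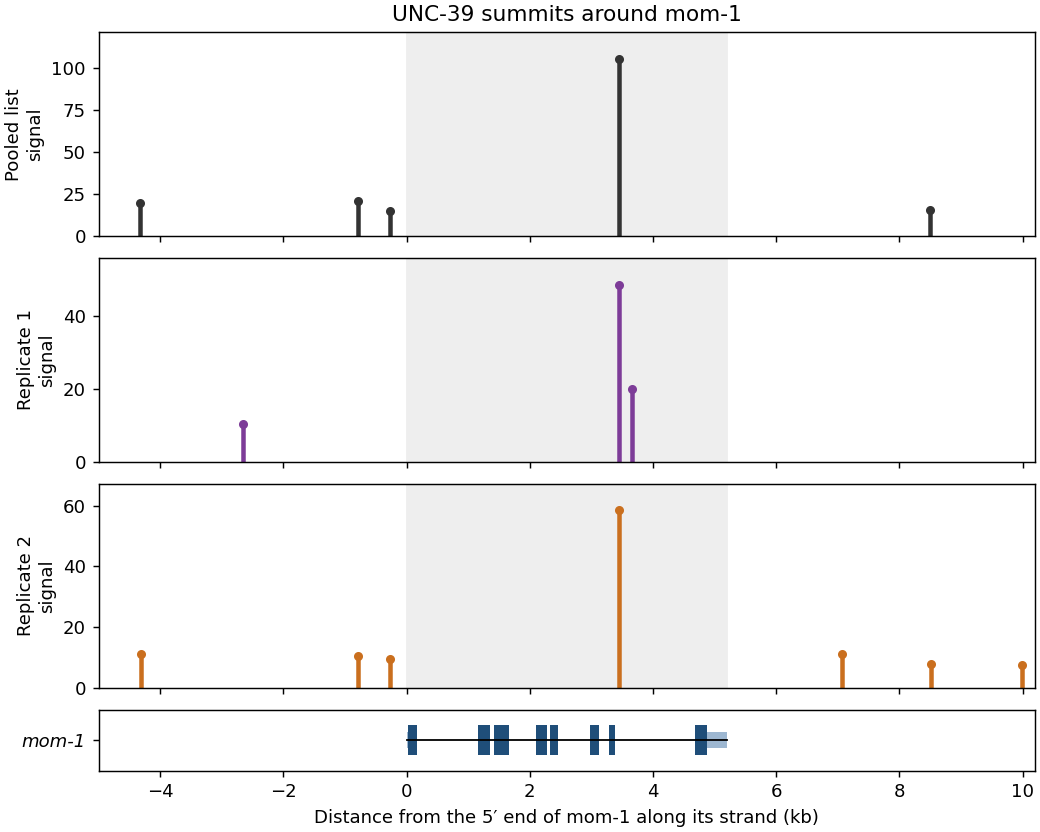
Summit signals (y, each list on its own scale) against distance from the 5′ end of mom-1 (x, kb) in the pooled list, replicate 1 and replicate 2, with the gene shaded and its exons below (tall boxes coding, low boxes untranslated). The tallest line in all 3 panels stands at 3.45 kb, in the last intron, and the 4 low pooled summits outside the gene recur in replicate 2.

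Set among all genes by their highest intronic summit, mom-1 came first of 5392 protein-coding genes with any intronic pooled summit. Of these, 31 had a thresholded one. The signal of this peak was known when mom-1 was listed, so nothing is read from its place. The next genes were F09A5.3 on X (signal 90.9, rank 8), F46H5.3 on X (89.1, rank 9) and ZK353.10 on III (82.8, rank 11). They are likest to mom-1 by the rank of that summit in the pooled list, a measure taken from a single list of 2 pooled replicates. In replicate 1 their summits ranked 17, 20 and 24, and in replicate 2 they ranked 7, 8 and 14.

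mig-14 (WBGene00003246, chrII:13741738-13749983), the other gene of secretion, had no summit above a signal of 23.7. That summit, at rank 3920, lay 2924 bp past the end of the gene in an intron of arrd-14. A summit 70 bp upstream of the mig-14 5′ end had a signal of 16.3, below the pooled median, and a partner in replicate 1 only (rank 14951). The single pooled summit inside the gene, at 13748027, was in a coding exon, with a signal of 21.3. Replicate 2 had it at the same base, with a signal of 7.54 at rank 22810. Replicate 1 had a coding exon summit at 13747889, beyond the 100 bp match, with a signal of 15.2 at rank 3240. Of 5 summits, only 1 was found in both replicates, 4740 bp upstream and 65 bp from R06B9.5, at ranks 23582 in replicate 1 and 22004 in replicate 2.

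None of the 5 ligand genes had a thresholded summit in reach, and 1.72% of all protein-coding genes had one. The highest signals of the ligand genes ran from 15.004 to 32.7. cwn-1 (WBGene00000857, chrII:130983-133598), a Wnt gene that acts with other Wnts in cell migration, had the highest. That summit had rank 660 and lay 4181 bp upstream of cwn-1, inside a coding exon of K10B4.1. It ranked 601 in replicate 2 with a signal of 18.8 and 11901 in replicate 1 with a signal of 11.1, so that it stood far higher in replicate 2 than in replicate 1. A second cwn-1 summit, in a coding exon of srd-3 with a signal of 25.9 at rank 2433, ranked 7348 in replicate 1 and 7895 in replicate 2. No pooled summit lay inside cwn-1.

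cwn-2 (WBGene00000858, chrIV:10067816-10070251), a Wnt gene with roles in neurons, had its highest summit, with a signal of 24.97 at rank 2980, in a coding exon of W01B6.3 downstream. The summit nearest to the gene was 1398 bp upstream, with a signal of 18.2, and it had a partner in replicate 2 only (12.1 at rank 5230). egl-20 (WBGene00001188, chrIV:9812357-9815532), whose product is made in the tail and steers the migrating Q neuroblasts, had a signal of 21.5 at rank 6217, at a summit 307 bp past its 3′ end. That summit was found in both replicates, at ranks 16594 in replicate 1 and 12771 in replicate 2. Neither cwn-2 nor egl-20 had a pooled summit within the gene.

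lin-44 (WBGene00003029, chrI:4126056-4129310), which sets the polarity of cells in the tail, had its highest summit in a coding exon of the neighbour H31G24.1, 1448 bp upstream, with a signal of 23.3 at rank 4288. In replicate 1 this summit had a signal of 20.8 at rank 483, and replicate 2 had none within 100 bp. Its 2 summits inside the gene, both in coding exons, had signals of 14.6 and 16.4. mom-2 (WBGene00003395, chrV:8355988-8358185), the ligand known for inducing endoderm in the embryo, had the lowest top signal of all 10 genes, 15.004 at rank 21437, in a coding exon of srsx-22. That level was reached or passed by 91.6% of all protein-coding genes, and none of its 3 summits was found in both replicates.

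The receptor genes held the most summits, 26 of the 54, and the second highest signal. The count depends on the length searched. Summits per kb searched were 0.339 at lin-17, 0.553 at mom-5 and 0.582 at mig-1, beside 0.357 over the whole search. lin-17, mom-5 and mig-1 all encode Frizzled receptors. mom-5 (WBGene00003397, chrI:9965574-9970037) had a summit between genes 2656 bp upstream of its 5′ end, with a signal of 42.4 at rank 197, just below the lowest thresholded signal of 45.9. The nearest protein-coding gene there is algn-10, 941 bp away. In replicate 1 the summit had a signal of 32.4 at rank 31 of 30000, and in replicate 2 a summit 61 bp away had a signal of 11.2 at rank 7057 of 24978. The replicates thus differed widely in where they ranked this region, and they did not at the mom-1 intron.

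Each replicate's own 140 highest regions were then used in place of the thresholded list. In replicate 1, mom-1 and mom-5 had one in reach, beside 1.72% of all protein-coding genes. In replicate 2, mom-1 alone had one, beside 1.61%. The mom-1 peak was known when the genes were listed, so nothing is read from these counts. Inside mom-5, a summit in a coding exon had a pooled signal of 20.7 at rank 7405 and a signal of 20.2 at rank 582 in replicate 1, with none within 100 bp in replicate 2. A summit in its untranslated exon had a pooled signal of 22.3 and no partner in either list.

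**Figure D3:**
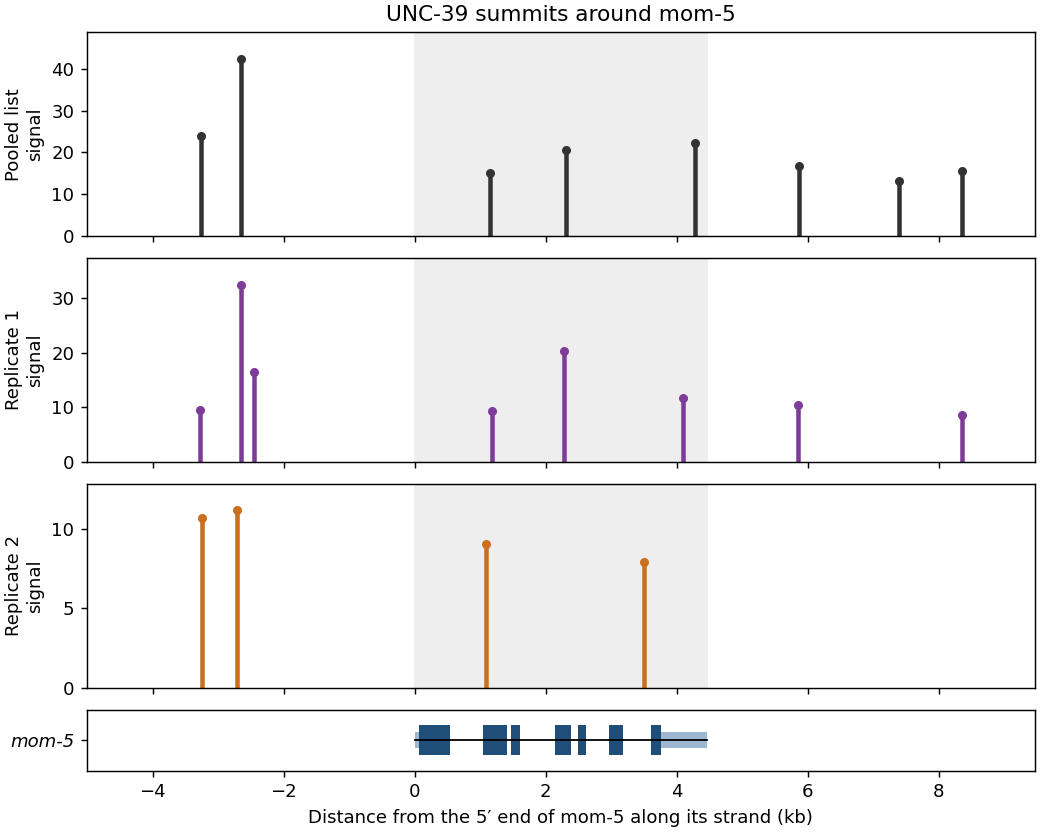
Summit signals (y, each list on its own scale) against distance from the 5′ end of mom-5 (x, kb) in the pooled list, replicate 1 and replicate 2, with the gene shaded and its exons below. The summit 2.66 kb upstream stands out in the pooled list (42.4) and in replicate 1 (32.4), and in replicate 2 it is near the height of its neighbour (11.2 and 10.7).

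lin-17 (WBGene00003006, chrI:2706883-2717549), needed for asymmetric division in the tail, is the longest of the genes at 10667 bp and had 7 summits, with signals from 13.4 to 22.05. Its 4 inner summits were all in introns. The highest of them, at 2709860 and rank 5568, ranked 2291 in replicate 1 and had no partner within 100 bp in replicate 2. Just beyond that distance replicate 2 had a summit at 2709964, at rank 14154. mig-1 (WBGene00003238, chrI:948569-957456), a receptor of migrating neuroblasts, had the most summits, 11, of which 5 were inside the gene. Their signals ran from 14.1 to 20.9, so that mig-1 had many summits and no high one. Its highest summit, in an intron, ranked 28384 in replicate 1 and 2620 in replicate 2. The 0.582 summits per kb searched at mig-1 were reached or passed by 5.33% of all protein-coding genes, while its highest signal was reached or passed by 57.0% of them. For the 0.553 per kb at mom-5 the share was 7.24%.

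Ordered by the highest signal in reach, the genes ran mom-1 (105), mom-5 (42.4), cwn-1 (32.7), cwn-2 (24.97), mig-14 (23.7), lin-44 (23.3), lin-17 (22.05), egl-20 (21.5), mig-1 (20.9) and mom-2 (15.004). Among all protein-coding genes, 0.0701% had a signal in reach as high as that of mom-1, 2.31% as high as that of mom-5 and 7.55% as high as that of cwn-1. From cwn-2 down to mig-1, 30.05% to 57.0% of genes did. The lists give no error for a signal, so whether neighbours in this order differ cannot be told. mom-1 was first and mom-2 last in the pooled list and in both replicates, while the order between them changed: mom-5 came next after mom-1 in replicate 1 and cwn-1 did in replicate 2.

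**Figure D4:**
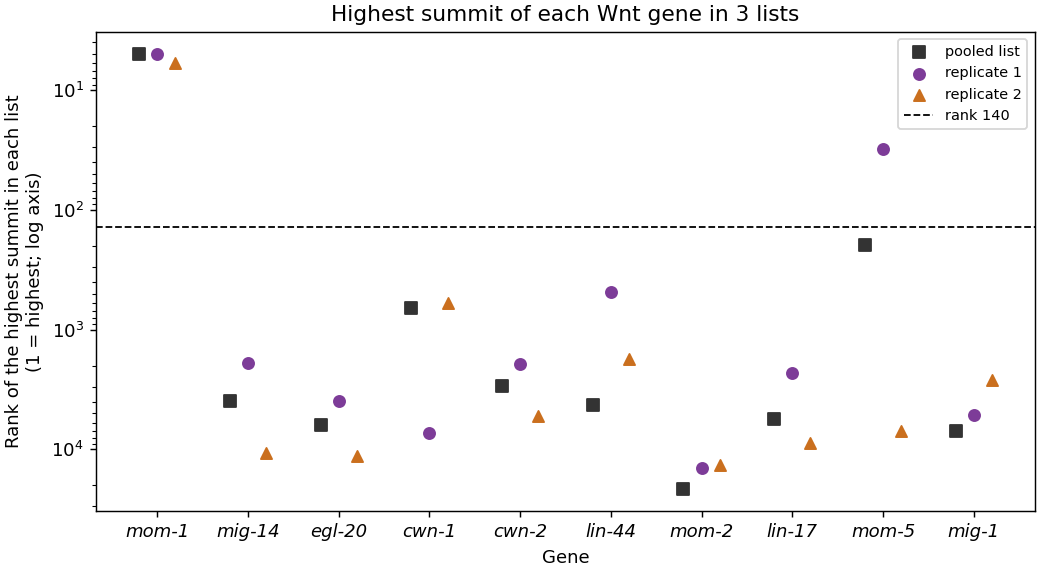
Rank of the highest summit in reach of each gene (y, log axis, highest ranks at the top) in the pooled list (squares), replicate 1 (circles) and replicate 2 (triangles); the highest summit can be a different one in each list. mom-1 is at ranks 5, 5 and 6, and mom-5 at 197, 31 and 7057.

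Agreement between replicates was near the level of the whole list. Of the 54 summits 13 (24.1%) had a summit within 100 bp in both replicates, beside 19% of all 30000 pooled summits. Without the mom-1 intron peak, 12 of 53 (22.6%) did. Of the 140 thresholded summits, 121 (86.4%) did. A partner in replicate 1 only was found for 21 (38.9%), in replicate 2 only for 10 (18.5%) and in neither for 10 (18.5%). Over all pooled summits these shares were 36.4%, 27.2% and 17.4%. The highest summit of each gene had a partner in replicate 1 for 10 of 10 genes and in replicate 2 for 5, namely mom-1, mom-5, cwn-1, egl-20 and mig-1. For 5 of the 10 genes the highest summit lay inside another protein-coding gene. Shares for the highest summits of all genes are not given, so nothing is read from these counts of highest summits. All but the mom-1 intron summit, 53 of the 54, were outside the thresholded list. That list held 140 of the 30000 pooled regions, so nearly all regions were outside it.

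The sequence of the mom-1 peak, printed above, holds the MEX word at both sides of the summit on the plus strand. The first match, from 14 to 3 bp before the summit, has 2 mismatches, and the second, from 14 to 25 bp after it, has 1. No other summit of these genes had a match with 2 mismatches or fewer, the closest being 2 summits with 3 mismatches at mom-5 and mig-1. Over the whole pooled list 140 summits (0.467%), 10 of them thresholded, had a match within the same 200 bp. Only 38 of the 140 were on X, where they were 0.663% of the 5730 pooled summits. Most summits with a match were thus not on X. More than 1 match was found at 8 summits (0.0267%). All 8 were on X, and 7 of them, the mom-1 peak included, were in the thresholded list. All 10 thresholded summits with a match were on X too, where they were 20% of the 50 thresholded summits, and the 7 with more than 1 match were 14%. One of those 7 besides the mom-1 peak was intronic, in Y41G9A.17, with a signal of 81.3 at rank 13. The 3 genes that follow mom-1 by intronic signal had no such match, with 4, 3 and 5 mismatches at best for F09A5.3, F46H5.3 and ZK353.10. A match is a description of the letters and not of a protein bound there.

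**Figure D5:**
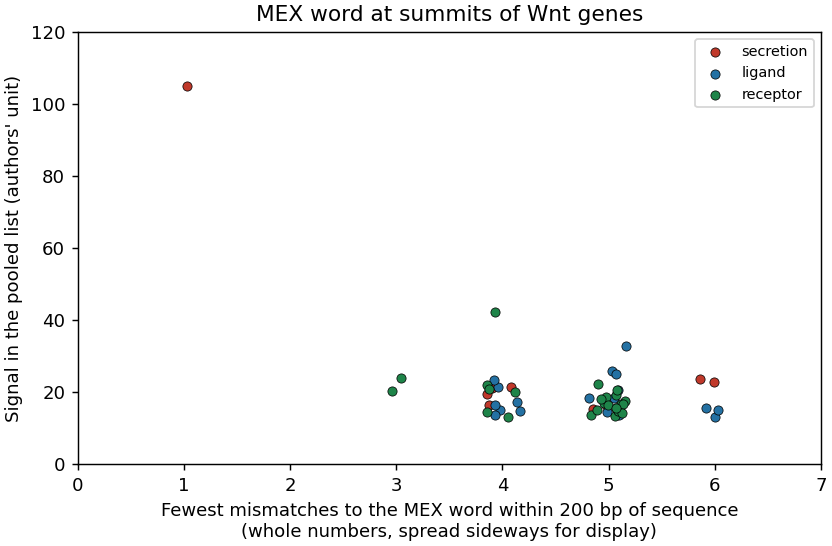
Pooled signal (y) of the 54 summits against the fewest mismatches to the MEX word in the 200 bp around each summit (x, whole numbers spread sideways), coloured by role. The mom-1 intron peak, at 1 mismatch and a signal of 105, stands alone, and all others have 3 to 6 mismatches and signals up to 42.4.

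A further 6 words were looked for in these windows, on the plus and the minus strand, and none of them was present at the mom-1 peak. The SIX-family core TGATAC was at 1 of the 54 summits (1.85%), at mom-2, beside 6.69% of all pooled summits. The core TGACAC of fly Six4 was at 6 (11.1%), at cwn-1, mig-1, mom-1 and mom-5, beside 8.17%. The GATA factor site TGATAA was at 6 (11.1%) beside 16.3%. The GA repeat GAGAGAGA was at 2 (3.70%) beside 2.46%, and the CA repeat CACACACA at 2 (3.70%) beside 2.00%. The E-box CAGCTG was at 0 of 54 beside 4.90%. A summit may hold several of these words, and no word contains another. Each of the shares above 0 rests on 1 to 6 summits. Median GC content was 41.5% over the 54 summits, 43.5% at the mom-1 peak and 38.5% over all pooled summits; thresholded summits had a median of 50%.

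Further along the pathway, 48 other genes were examined. All 48 had a pooled summit in reach, with a median highest signal of 23.6, and over all protein-coding genes the median was 22.1. A thresholded summit was in reach of 3 of 48 (6.25%), beside 1.72% of all protein-coding genes, and 1 of the 1000 highest regions was in reach of 9 (18.8%), beside 11.2%. The 3 with a thresholded summit were 2 of 16 genes of Wntless retrieval and membrane traffic, 1 of 12 cytoplasmic regulators, and 0 of 7 other receptors and membrane modulators, 0 of 5 beta-catenin and TCF genes and 0 of 8 targets. None of the 3 thresholded summits was inside the pathway gene itself.

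The highest was 1035 bp upstream of mtm-3, a gene for a myotubularin lipid phosphatase, with a signal of 50.9 at rank 100; it is nearer to xbx-5, 399 bp away, and ranked 844 in replicate 1 and 118 in replicate 2. The one 774 bp upstream of apa-2, which encodes the alpha subunit of the AP2 clathrin adaptor, had a signal of 47.9 at rank 121 and ranked 4450 in replicate 1 and 98 in replicate 2. The one 3081 bp upstream of the kinase gene gsk-3 had a signal of 46.0 at rank 139, lay in a coding exon of Y18D10A.4, and ranked 8288 in replicate 1 and 7200 in replicate 2. Unlike the mom-1 intron peak, all 3 were thus ranked far lower by replicate 1 than in the pooled list. The gsk-3 summit was ranked far lower by replicate 2 too.

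The next were the Dishevelled gene mig-5 (signal 36.0, 203 bp upstream), the AP2 mu subunit gene dpy-23 (35.8, 346 bp upstream, inside the ncRNA gene R160.8) and the sorting nexin gene snx-1 (35.3, in its own untranslated exon, 22 bp from the 5′ end). After them came the nuclear receptor gene nhr-25 (32.3, 2606 bp upstream), the Frizzled-related gene sfrp-1 (32.1, 2890 bp from the gene) and the ROR receptor gene cam-1 (30.8, in a coding exon). At mig-5 the summit ranked 1099 in replicate 1 and 966 in replicate 2, the closest pair of ranks among these 6. At dpy-23, which lies on X, it ranked 5807 and 185.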

How the data were processed

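L2 larvae in 2 biological replicates had been assayed by ChIP-seq for the eGFP tag. The authors deposited peak lists, and the signal values come from alignments of 1 or both replicates and of a control that the authors had made, per the labels and the listings of the files. By their names and listings, the thresholded list was derived by the authors from the other lists by the irreproducible discovery rate. Its 140 peaks were the 140 highest pooled regions by signal. The caller is not given in the sources used here. Control reads were not analysed. The lists hold no read counts, so depth is unknown, and unequal depth could move ranks and list lengths. Genes came from Ensembl release 115 and sequence from RefSeq, both WBcel235, which is ce11; lists on ce10 were not used. Regions were ranked by signal within a list, a summit was matched between lists within 100 bp, and words were searched in the 200 bp around a summit. With 1 group no test was made. The members, the lists and the words were chosen with earlier results of these data known; of other pathway genes, those with a thresholded summit and the next 6 by signal are named. A neighbouring gene is named for some summits that lie inside or nearer to it. Counting in reach was checked on simulated positions. Python 3.11.15, numpy 2.4.6, pandas 2.3.3 and matplotlib 3.10.9 were used.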

Additional observations from a re-analysis of the deposited data

How the results depend on the processing

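The mom-1 intron peak kept a rank of 5 to 6 when either replicate was left out, and 5 with the mean rank of ties. Members with a thresholded summit numbered 1 with a reach of 0, 2 or 10 kb and 1 with the 70 highest thresholded peaks only. A summit among the 1000 highest regions was in reach of 3, beside 11.2% of all protein-coding genes. For a single replicate, its own 140 highest regions stood in for the thresholded list. In replicate 1, 2 members had one (mom-1 and mom-5), beside 1.72% of protein-coding genes. In replicate 2, 1 member did, beside 1.61%. All these counts include the mom-1 peak, known when the genes were listed, so nothing is read from them. Members reached fell to 7 inside the gene only and were 10 otherwise, also without either replicate. Their summits numbered 18 inside the gene only, 32 within 2 kb, 84 within 10 kb, 28 where the member was the nearest protein-coding gene, and 41 to 52 without a replicate. Of the 54 summits, 7 (13.0%) were found in both replicates with a match within 50 bp, beside 12.35% of all pooled summits, and 20 (37.0%) within 200 bp, beside 27.6%. Of other pathway genes 37 to 48 were reached in every setting. Those with a thresholded summit, a count chosen after seeing the data, numbered 0 inside the gene only. With a replicate's own 140 highest regions instead, they numbered 0 in replicate 1, beside 1.72% of protein-coding genes, and 3 in replicate 2, beside 1.61%. Shares over all protein-coding genes are given only at a reach of 5 kb, so nothing is read from gene counts at other reaches. In windows of 100 bp the GA repeat was at 0 summits beside 1.32% of all pooled summits, the CA repeat at 0 beside 0.953%, TGATAA at 3 (5.56%) beside 8.56% and TGACAC at 3 (5.56%) beside 4.09%. In windows of 400 bp CAGCTG was at 4 (7.41%) beside 9.30%, TGATAA at 11 (20.4%) beside 30.3%, TGATAC at 3 (5.56%) beside 13.1% and TGACAC at 11 (20.4%) beside 15.6%. The causes were not tested. No paired analysis was possible because there is 1 group. Unknown depth limits what the ranks of single summits show.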
